A study of Mus musculus with 7 samples.

Results

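The insulin-like growth factor (IGF) genes examined here are 10 genes picked by symbol: the ligands Igf1 and Igf2, the receptors Igf1r and Igf2r, and the binding proteins Igfbp2, Igfbp3, Igfbp4, Igfbp5, Igfbp6 and Igfbp7. Each was read from 1 probe set that the platform's annotation gives to that gene alone. They are 10 of 22180 genes measured in C2C12, an established mouse line of dividing skeletal myoblasts. Per the labels, cells grew in medium with 15% fetal bovine serum and every group, Control included, received siRNA by transfection, 0.2 µmol for each 100 mm dish. The groups were Control siRNA (2 arrays), siG9a, which targets the histone H3 lysine 9 methyltransferase gene Ehmt2 (3 arrays), and siGLP, which targets its relative Ehmt1 (2 arrays). The labels do not say whether replicates came from separate cultures, and the p-values therefore reflect array-to-array spread that may be technical. The labels give no time after transfection.

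IGF1 and IGF2 are secreted peptides that activate the receptor tyrosine kinase IGF1R, which signals through adaptor proteins to the PI3K-AKT and RAS-MAPK arms. In skeletal muscle they are known to drive both myoblast division and differentiation, and IGF2 acts as an autocrine factor when myoblasts leave the cell cycle. IGF2R carries IGF2 to the lysosome and does not signal as a kinase, and the binding proteins hold IGFs in the medium until proteases release them.

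Igfbp5 stood furthest from Control of the 10 genes in both knockdowns. Its signal was 1.99-fold lower in siG9a and 2.31-fold lower in siGLP, and all 3 siG9a arrays and both siGLP arrays lay below both Control arrays. Igfbp7 was 1.22-fold higher in siG9a and Igfbp6 was 1.25-fold higher in siGLP. The ligand and receptor genes differed from Control by at most 0.11 on the log2 scale in either knockdown. No member passed the threshold of an adjusted p under 0.05 over all genes in any comparison (limma with Benjamini-Hochberg adjustment), so these are differences in the measured arrays that the test did not call.

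The targeted genes and the cell type were examined first. Ehmt2 in siG9a was at 38.8% of Control (log2 difference -1.37, SE 0.10; limma adjusted p = 0.0308) and Ehmt1 in siGLP at 58.0% (log2 difference -0.79, SE 0.14; limma adjusted p = 0.197, which did not pass). Array medians of log2 signal were 4.54 to 4.59, and the quartiles over all probe sets were 3.32 to 3.36 and 6.85 to 6.90. All 8 measured myoblast markers lay above the array median in every group, and their summed log2 signal was 66.2 to 66.9 in Control, 64.7 to 65.2 in siG9a and 64.5 to 65.8 in siGLP. Such sums do not show single genes. Myod1 stood at -0.68 in siG9a (limma adjusted p = 0.146) and -0.0025 in siGLP. Cdh15 stood at -0.51 in both knockdowns (limma adjusted p = 0.181 and 0.292). In siG9a 5 of the 8 lay below Control and 3 above, and in siGLP 6 below and 2 above (48% and 49.2% of all genes lay below). At an unadjusted limma p under 0.05, 4 of the 8 were lower in siG9a, against 4.57% of all genes. They were Myod1, Cdh15, Pax7 (-0.36) and Itga7 (-0.19). In siGLP 2 were lower, Cdh15 and Des (-0.20), against 4.13% of all genes. No myoblast marker was higher at that level in either knockdown. None of the 11 markers of differentiated muscle had a group mean above the upper quartile, and their sum was 56.1 to 57.9 in Control, 56.0 to 56.7 in siG9a and 55.0 to 55.4 in siGLP. Among them Mymk stood at -0.29 in siG9a (limma adjusted p = 0.184) and -0.71 in siGLP (unadjusted p = 2.14e-05, limma adjusted p = 0.133). Tnni1 went the other way in siGLP, at 0.27 (unadjusted p = 0.0207, limma adjusted p = 0.454). In each knockdown 6 of the 11 lay below Control and 5 above. None of 11 endothelial and osteoblast markers reached the upper quartile on any array, their sums ranging over all groups from 22.7 to 23.4 and from 19.5 to 20.8. Of 6 neuronal markers, 5 lay above the array median in every group, with sums of 36.8 to 38.0 in Control, 37.8 to 38.3 in siG9a and 37.4 to 37.5 in siGLP.

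The ligand genes gave low signals. The log2 signal of Igf1 was 4.70 and 4.65 on the Control arrays, 4.74, 4.82 and 4.75 on the siG9a arrays and 4.71 on both siGLP arrays. The whole range over 7 arrays was 0.17, and the siG9a arrays lay just above the Control arrays. The difference was 0.10 in siG9a (SE 0.061; limma adjusted p = 0.636) and 0.04 in siGLP (SE 0.067; limma adjusted p = 0.919). Igf2 read 4.50 and 4.77 in Control, 4.41, 4.85 and 4.68 in siG9a and 4.58 and 4.56 in siGLP. All 3 groups overlapped, and Igf2 exceeded the median of all probe sets on only 3 of the 7 arrays. Its difference was 0.01 in siG9a (95% interval -0.32 to 0.34) and -0.07 in siGLP (95% interval -0.43 to 0.30). Igf1 was above that median on all 7 arrays but by little. No background level was measured, so neither ligand can be said to rise above background. A fall or a small change in a transcript at that level could go unseen.

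The receptor genes were above the upper quartile of all probe sets on all 7 arrays. Igf1r, the signalling receptor, read 7.01 and 7.03 in Control, 7.26, 7.05 and 7.07 in siG9a and 7.01 and 7.003 in siGLP. Every siG9a array was above both Control arrays, with siG9a 1 the highest. The log2 difference was 0.11 in siG9a (95% interval -0.08 to 0.29; limma adjusted p = 0.684) and -0.01 in siGLP (95% interval -0.22 to 0.19; limma adjusted p = 0.991). Without siG9a 1 the siG9a value was 0.04 (unadjusted p = 0.513, limma adjusted p = 0.844). Igf2r, the clearance receptor, read 7.09 and 7.19 in Control, 7.30, 6.96 and 7.05 in siG9a and 7.20 and 6.98 in siGLP. Its groups overlapped throughout. The difference was -0.04 in siG9a (95% interval -0.33 to 0.25) and -0.05 in siGLP (95% interval -0.36 to 0.26), and both turned in sign when single arrays were left out.

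**Figure D1:**
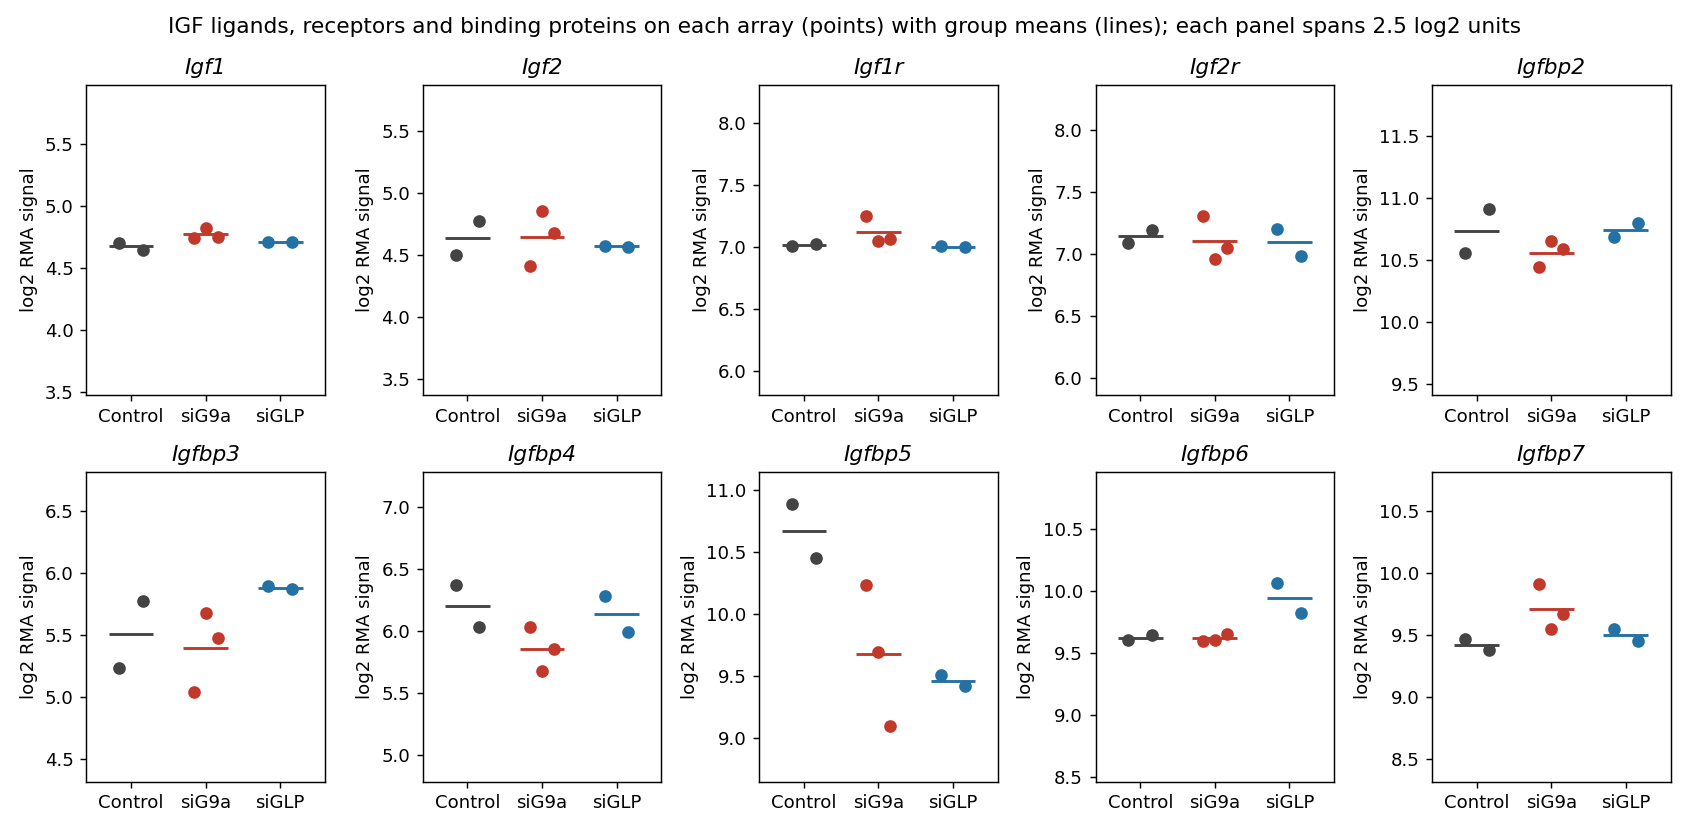
Log2 RMA signal (y axes, each spanning 2.5 log2 units) of the 10 IGF genes by siRNA group (x axes), with 1 point per array and a line at each group mean. Igfbp5 averages 10.7 in Control, 9.68 in siG9a and 9.46 in siGLP, and the ligand and receptor panels are nearly flat.

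Igfbp5 encodes the binding protein that differentiating myoblasts are known to secrete. Its log2 signal was 10.89 and 10.45 on the Control arrays, 10.24, 9.69 and 9.10 on the siG9a arrays and 9.51 and 9.42 on the siGLP arrays. The Control arrays were the highest of the 7, and siG9a spread widely, with siG9a 1 close to Control and siG9a 3 the lowest of all. In the same array order the targeted gene read 6.31, 6.14 and 5.99 in siG9a (Ehmt2) and 5.73 and 6.13 in siGLP (Ehmt1). Whether Igfbp5 follows the target level was not tested. Control averaged 10.7 ± 0.31 (SD, n = 2). The siG9a arrays averaged 9.68 ± 0.57 (SD, n = 3), and those of siGLP 9.46 ± 0.061 (SD, n = 2). The difference was -0.99 in siG9a (SE 0.31, 95% interval -1.72 to -0.26; unadjusted p = 0.0147, limma adjusted p = 0.330) and -1.21 in siGLP (SE 0.34, 95% interval -2.00 to -0.41; unadjusted p = 0.00912, limma adjusted p = 0.384). Both comparisons use the same 2 Control arrays, which themselves stood 0.44 apart, so the 2 values are not independent of each other. Igfbp5 ranked 984 of 22180 genes by p in siG9a and 526 in siGLP. A lower array signal cannot tell less transcript per cell from fewer cells that make it. The siG9a and siGLP arrays overlapped, and siGLP minus siG9a was -0.21 (95% interval -0.94 to 0.51; limma adjusted p = 0.825), an interval that leaves room for differences in either direction. That value was 0.068 without siG9a 1 and -0.50 without siG9a 3.

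Leaving out single arrays moved Igfbp5 between -1.27 and -0.70 in siG9a and between -1.42 and -0.99 in siGLP, without a change of sign. In siG9a the difference was -0.77 without Control 1 (unadjusted p = 0.117, limma adjusted p = 0.712) and -0.70 without siG9a 3 (unadjusted p = 0.0199, limma adjusted p = 0.508). In siGLP it was -0.99 without Control 1 (unadjusted p = 0.0718, limma adjusted p = 0.668). Some markers of other cells also differed in the same comparisons. The leukocyte sums differed mainly through Cd68, and the adipocyte sums in siGLP mainly through Fabp4. The summed log2 signal of 5 leukocyte markers was 20.8 to 21.5 in Control, 21.7 to 22.0 in siG9a and 21.7 to 22.1 in siGLP, and that of 5 adipocyte markers was 22.4, 22.9 to 23.1 and 23.5 to 26.1 in the same order. Of the leukocyte list only Cd68, also a general lysosomal protein gene, lay above the array median in any group mean. It was at 7.14 in Control, 7.76 in siG9a and 7.68 in siGLP. Against Control, Cd68 stood at 0.62 in siG9a and 0.54 in siGLP. The other measured leukocyte markers ran from -0.08 (Lyz2) to 0.15 (Cd3e) in siG9a. In siGLP they ran from 0.02 (Itgam) to 0.10 (Cd3e). The pan-leukocyte gene Ptprc was below the lower quartile on all 7 arrays. The adipocyte list held 1 gene above the upper quartile, Pparg, at 7.95, 8.23 and 8.13, and Adipoq was at 3.02 in Control and 3.12 in siGLP. Fabp4, a fatty acid carrier gene of the same list, read 3.48 and 3.18 in Control, 4.19, 3.41 and 3.69 in siG9a and 6.32 and 4.40 in siGLP. Both siGLP arrays were above all others, at 2.03 against Control (SE 0.57; unadjusted p = 0.00937, limma adjusted p = 0.386). The other measured adipocyte markers ran from 0.02 (Plin1) to 0.17 (Pparg) in siGLP. In siG9a the adipocyte list ran from -0.26 (Lep) to 0.43 (Fabp4), with Pparg at 0.28 (limma adjusted p = 0.310). The neuronal marker Map2 stood at 0.35 in siG9a (limma adjusted p = 0.252) and -0.06 in siGLP. Other neuronal markers ran from -0.08 (Snap25) to 0.17 (Nefl) in siG9a and from -0.26 (Tubb3) to 0.15 (Syt1) in siGLP. The part of these markers and of the lower muscle marker sums in the Igfbp5 difference was not tested.

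**Figure D2:**
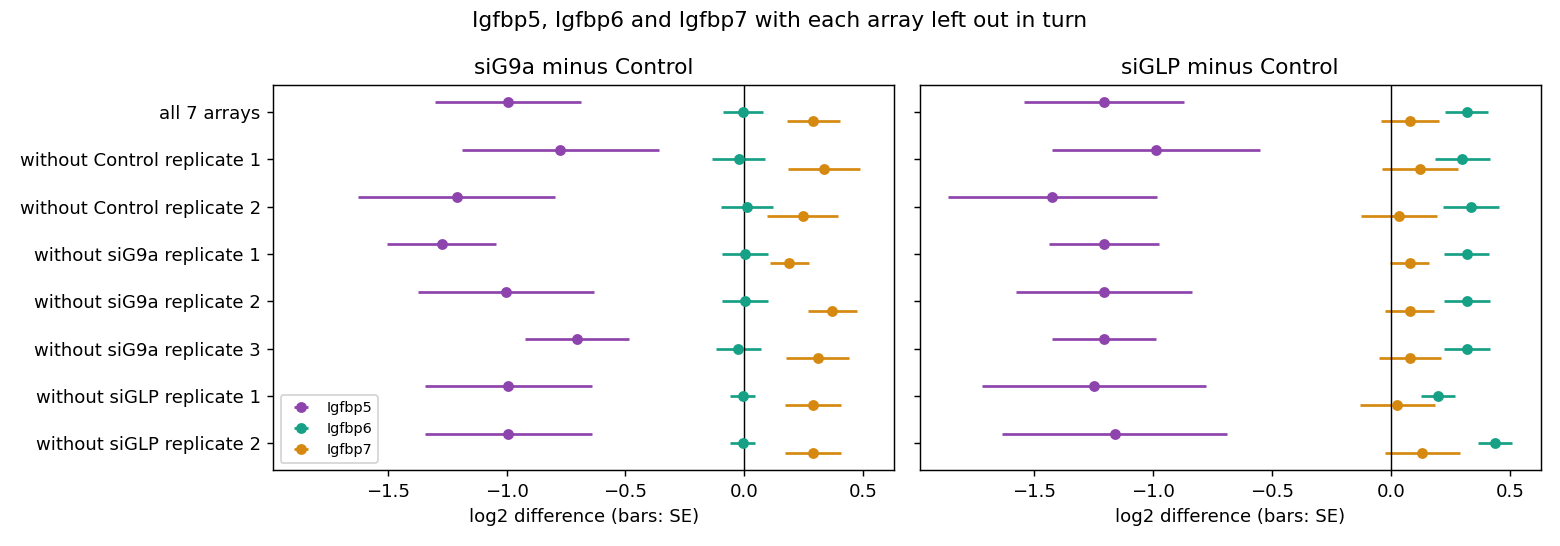
Log2 difference from Control (x axes; points with SE bars) of Igfbp5, Igfbp6 and Igfbp7 with all 7 arrays and with each array left out (y axes). Igfbp5 stays below 0 throughout, from -1.27 to -0.70 in siG9a and from -1.42 to -0.99 in siGLP.

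The bases in front of the Igfbp5 start are shown because it is the member with the largest difference, those of Igfbp2 because it is the next protein-coding gene to Igfbp5 on the chromosome, and those of Igfbp6 and Igfbp7 because they had the next smallest p-values in the comparisons with Control. Sequences are the 250 bases before the start in RefSeq, build GRCm38.p6, 5′ to 3′ on the gene's strand, and all 10 members matched the promoter table by symbol. The windows are chr1:72874866-72875115 on the minus strand for Igfbp5, chr1:72824230-72824479 on the plus strand for Igfbp2 (the first of 2 listed starts), chr15:102143936-102144185 on the plus strand for Igfbp6 and chr5:77408046-77408295 on the minus strand for Igfbp7. Capitals mark matches, on either strand, to the E-box CANNTG, the core recognised by MyoD and other bHLH factors, the TATA box TATAAA or the GC box GGGCGG.
Igfbp5: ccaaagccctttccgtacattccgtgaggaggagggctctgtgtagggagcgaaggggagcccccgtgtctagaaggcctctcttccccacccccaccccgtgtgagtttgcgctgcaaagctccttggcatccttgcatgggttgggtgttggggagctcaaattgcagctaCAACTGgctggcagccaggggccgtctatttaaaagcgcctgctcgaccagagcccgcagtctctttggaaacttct
Igfbp2: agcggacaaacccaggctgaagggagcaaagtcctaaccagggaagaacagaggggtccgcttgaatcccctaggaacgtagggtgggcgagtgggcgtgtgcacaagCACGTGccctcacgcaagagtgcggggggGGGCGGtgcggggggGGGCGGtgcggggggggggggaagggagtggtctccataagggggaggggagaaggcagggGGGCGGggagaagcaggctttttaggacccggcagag
Igfbp6: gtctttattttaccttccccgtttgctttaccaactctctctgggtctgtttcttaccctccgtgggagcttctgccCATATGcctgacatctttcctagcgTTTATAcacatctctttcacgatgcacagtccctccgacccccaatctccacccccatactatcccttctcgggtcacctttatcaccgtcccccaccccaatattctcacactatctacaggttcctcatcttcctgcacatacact
Igfbp7: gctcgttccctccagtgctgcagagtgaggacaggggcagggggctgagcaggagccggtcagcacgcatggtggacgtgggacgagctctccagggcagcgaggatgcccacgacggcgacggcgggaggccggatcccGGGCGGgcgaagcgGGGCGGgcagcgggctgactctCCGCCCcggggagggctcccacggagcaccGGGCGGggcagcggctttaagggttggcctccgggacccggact
The Igfbp5 window held 1 E-box, CAACTG, starting 77 bases before the start, and neither of the other motifs. The Igfbp2 window held 1 E-box, CACGTG, and 3 GC boxes. The Igfbp6 window held 1 E-box, CATATG, and 1 TATA box read on the opposite strand, and the Igfbp7 window held 4 GC boxes. Such matches are common: of 32851 promoter windows of this length 66.2% held CANNTG, 12.4% held TATAAA and 32.7% held GGGCGG. The Igfbp5 window had 10 CpG dinucleotides and the Igfbp7 window 26, against a median of 6 over all windows. A match is a stretch of letters and was not tested for binding.

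Igfbp2 lies beside Igfbp5 in the genome and its signal was high in every group. It read 10.56 and 10.91 in Control, 10.45, 10.65 and 10.59 in siG9a and 10.69 and 10.80 in siGLP. The Control arrays spanned the values of siGLP and most of those of siG9a. The difference was -0.17 in siG9a (95% interval -0.46 to 0.11; limma adjusted p = 0.657) and 0.0085 in siGLP (95% interval -0.30 to 0.32; limma adjusted p = 0.997). Without Control 2 the siG9a value was 0.0024.

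Igfbp6 encodes a binding protein with a known preference for IGF2. Its log2 signal was 9.61 and 9.64 in Control, 9.60, 9.60 and 9.66 in siG9a and 10.07 and 9.83 in siGLP. Control and siG9a arrays overlapped closely, and both siGLP arrays lay above all 5 others. The difference was 0.32 in siGLP (SE 0.091, 95% interval 0.10 to 0.53; unadjusted p = 0.0101, limma adjusted p = 0.392) and -0.0066 in siG9a (SE 0.083; limma adjusted p = 0.990). The direct comparison, siGLP minus siG9a, gave 0.33 (SE 0.083; unadjusted p = 0.00591, limma adjusted p = 0.187) and did not pass. Without siGLP 1 the siGLP value was 0.20 (unadjusted p = 0.0381, limma adjusted p = 0.598). The same array, siGLP 1, held the highest signal of the adipocyte marker Fabp4 (6.32, against 4.40 on siGLP 2 and 3.48 and 3.18 in Control). It also held the lower signal of the targeted gene Ehmt1, 5.73 against 6.13 on siGLP 2. Whether Igfbp6 is linked to either gene was not tested.

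Igfbp7 encodes a low-affinity IGF binder of the cell matrix. It read 9.46 and 9.37 in Control, 9.91, 9.55 and 9.67 in siG9a and 9.55 and 9.45 in siGLP. Every siG9a array was above both Control arrays, and siGLP overlapped Control. The difference was 0.29 in siG9a (SE 0.11, 95% interval 0.03 to 0.55; unadjusted p = 0.0357, limma adjusted p = 0.433) and 0.08 in siGLP (SE 0.12; limma adjusted p = 0.905). Without siG9a 1 the siG9a value was 0.19 (unadjusted p = 0.0616, limma adjusted p = 0.525).

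Igfbp4 encodes an inhibitory binding protein that the protease PAPP-A cleaves. It read 6.37 and 6.03 in Control, 6.03, 5.68 and 5.85 in siG9a and 6.28 and 5.99 in siGLP. The highest siG9a array equalled the lower Control array, and the siGLP arrays lay close to those of Control. The difference was -0.34 in siG9a (95% interval -0.70 to 0.01; unadjusted p = 0.0566, limma adjusted p = 0.491) and -0.06 in siGLP (95% interval -0.45 to 0.33). The siG9a value was -0.17 without Control 1 (unadjusted p = 0.365, limma adjusted p = 0.909) and -0.51 without Control 2 (unadjusted p = 0.0307, limma adjusted p = 0.444). Igfbp3, the main carrier of IGFs in blood, read 5.24 and 5.77 in Control, 5.04, 5.67 and 5.48 in siG9a and 5.89 and 5.87 in siGLP. Its Control arrays stood 0.54 apart, and the siGLP arrays lay above all others. The difference was -0.11 in siG9a (95% interval -0.62 to 0.40), 0.38 in siGLP (95% interval -0.18 to 0.93; limma adjusted p = 0.742) and 0.48 for siGLP minus siG9a (unadjusted p = 0.0588, limma adjusted p = 0.429). Without Control 2 the siG9a value was 0.16, and without Control 1 the siGLP value was 0.11.

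**Figure D3:**
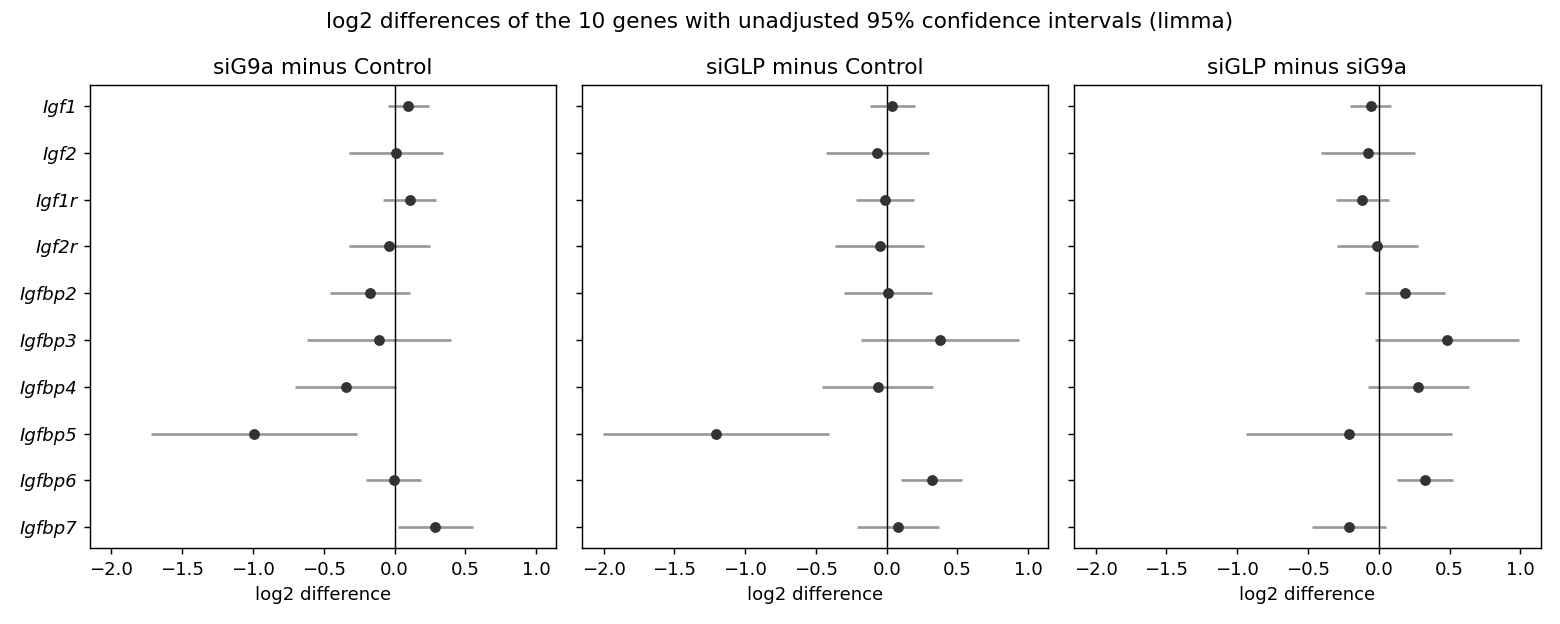
Log2 differences (x axes) of the 10 genes (y axis) in the 3 comparisons, with unadjusted 95% confidence intervals from limma. The intervals of Igfbp5 lie below 0 in both comparisons with Control, those of Igfbp7 in siG9a and Igfbp6 in siGLP lie above 0, and none passed after adjustment over all genes.

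Counts over the 10 genes are given beside those over all genes, with no test between them. In siG9a minus Control 0 of 10 passed after adjustment, against 0.0271% of all genes, and 2 (Igfbp5 and Igfbp7) had an unadjusted limma p under 0.05, against 10.5% of all genes. The arrays did not overlap for 4 of 10, against 25.7% of all genes, and the median difference was -0.02, against 0.0052 over all genes. In siGLP minus Control 0 of 10 passed, against 0.00451% of all genes, and 2 (Igfbp5 and Igfbp6) had an unadjusted limma p under 0.05, against 8.63%. The arrays did not overlap for 4 of 10, against 34.2% of all genes, and the median was -0.0013, against 0.0015. In siGLP minus siG9a 0 of 10 passed, against 0.234% of all genes, 1 (Igfbp6) had an unadjusted limma p under 0.05, against 12.4%, and the arrays did not overlap for 5 of 10, against 26.3%. By size, Igfbp5 was the 1 member of 10 beyond 1.5-fold in each comparison with Control, where 0.717% of all genes in siG9a and 0.942% in siGLP went that far.

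Genes around the ligands and receptors were read from 6 lists, with 50 of 65 genes measured by a probe set of their own, and none passed over all genes in either comparison with Control. Among these lists, proteins that carry or release IGFs held the largest differences. Of 11 measured, 8 lay below Control in siG9a (48% of all genes did), 4 of them at an unadjusted limma p under 0.05 (background 4.57% lower), with a median of -0.21. In siGLP 9 lay below (49.2% of all genes did), 2 of them at an unadjusted limma p under 0.05 (background 4.13% lower), with a median of -0.07. Adam12 encodes a metalloprotease known to cleave IGFBP3 and IGFBP5, and it read 7.15 and 7.19 in Control, 6.56, 6.39 and 6.06 in siG9a and 6.76 on both siGLP arrays. Control lay above every knockdown array, by 0.83 in the siG9a mean (SE 0.14; limma adjusted p = 0.132) and by 0.41 in the siGLP mean (SE 0.15; limma adjusted p = 0.516). Stc2, whose product inhibits PAPP-A, read 6.73 and 6.77 in Control, 6.10, 6.32 and 6.17 in siG9a and 6.34 and 6.36 in siGLP. It too was lower on every knockdown array, at -0.55 in siG9a (limma adjusted p = 0.106) and -0.40 in siGLP (limma adjusted p = 0.262). Stc2 and Adam12 were known to be low in these data when the lists were written, so their place in this list is no independent support. They are among the 4 genes counted as lower at an unadjusted limma p under 0.05 in siG9a. In siGLP they are the 2 so counted. The counts, medians and largest differences of this list include both genes and are no independent support either.

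No protease gene of the list passed in any comparison. Pappa, the PAPP-A gene, read 6.94 and 7.56 in Control, 7.72, 7.30 and 7.69 in siG9a and 6.82 and 6.86 in siGLP. Its siGLP arrays were below all others, at -0.41 against Control (limma adjusted p = 0.695) and -0.73 against siG9a (unadjusted p = 0.00835, limma adjusted p = 0.212). Htra1, a secreted serine protease gene, read 8.37 and 8.31 in Control, 8.17, 8.08 and 8.16 in siG9a and 8.58 and 8.42 in siGLP. Adamts1, a secreted metalloprotease gene, stood at -0.34 in siG9a (limma adjusted p = 0.289) and -0.05 in siGLP (limma adjusted p = 0.941). For siGLP minus siG9a the difference was 0.0071 for the matrix metalloprotease gene Mmp2 (limma adjusted p = 0.988) and -0.03 for the PAPP-A relative Pappa2 (limma adjusted p = 0.980). Against Control, Mmp2 stood at -0.08 in siG9a and -0.07 in siGLP, and Pappa2 at -0.22 and -0.25. Igfbp1, which encodes the insulin-regulated binding protein and lies beside Igfbp3, was below the array median on all 7 arrays, with the same value, 4.06, on 4 of them.

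Among the measured genes downstream of the receptor, differences from Control ran from -0.32 (Irs1 in siGLP) to 0.31 (Pik3cb in siG9a). A list of 13 insulin-family receptors and adaptors had 12 measured genes. Of these, 6 lay below Control in each knockdown, against 48% of all genes in siG9a and 49.2% in siGLP. The list medians were 0.00086 in siG9a and -0.03 in siGLP. Irs1, the adaptor that links the receptor to PI3K, read 8.86 and 8.82 in Control, 8.84, 8.72 and 8.58 in siG9a and 8.49 and 8.54 in siGLP. It was lower on both siGLP arrays than on any other, at -0.32 (SE 0.093; unadjusted p = 0.0108, limma adjusted p = 0.395), and at -0.13 in siG9a (limma adjusted p = 0.654). The PI3K, AKT and mTOR arm had 18 measured genes of 22 listed. In each knockdown 12 of the 18 lay above Control and 6 below, where 48% (siG9a) and 49.2% (siGLP) of all genes lay below. The medians of the arm were 0.05 in both. The smallest p-values there belonged to the catalytic subunit gene Pik3cb in siG9a (0.31; limma adjusted p = 0.418) and the kinase gene Gsk3b in siGLP (-0.25; limma adjusted p = 0.498). The RAS and MAPK arm had 4 measured genes of 9 listed. Among them the MEK kinase gene Map2k1 stood at -0.25 in siG9a (limma adjusted p = 0.268) and 0.26 in siGLP (limma adjusted p = 0.387). Its 7 values were 8.50 and 8.55 in Control, 8.34, 8.29 and 8.20 in siG9a and 8.78 and 8.79 in siGLP, so the knockdowns lay on opposite sides of Control.

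Igf2 and Igf2r are imprinted, expressed mainly from the paternal and the maternal allele, and their neighbours gave low signals. Airn, the noncoding RNA that overlaps Igf2r and silences its paternal allele, was below the array median on all 7 arrays, at 4.15 on both Control arrays, 4.15, 4.07 and 4.09 in siG9a and 3.73 and 4.19 in siGLP. Ins2, the insulin gene next to Igf2, was below the array median on all 7 arrays, at 3.78 in the Control mean, 3.54 in siG9a and 3.57 in siGLP (limma adjusted p = 0.332 and 0.523). H19 shares its probe set with another symbol and was not analysed here. Igf2bp3, the 1 measured gene of the IGF2 mRNA-binding proteins, stood at -0.08 in siG9a and -0.06 in siGLP (limma adjusted p = 0.745 and 0.893).

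**Figure D4:**
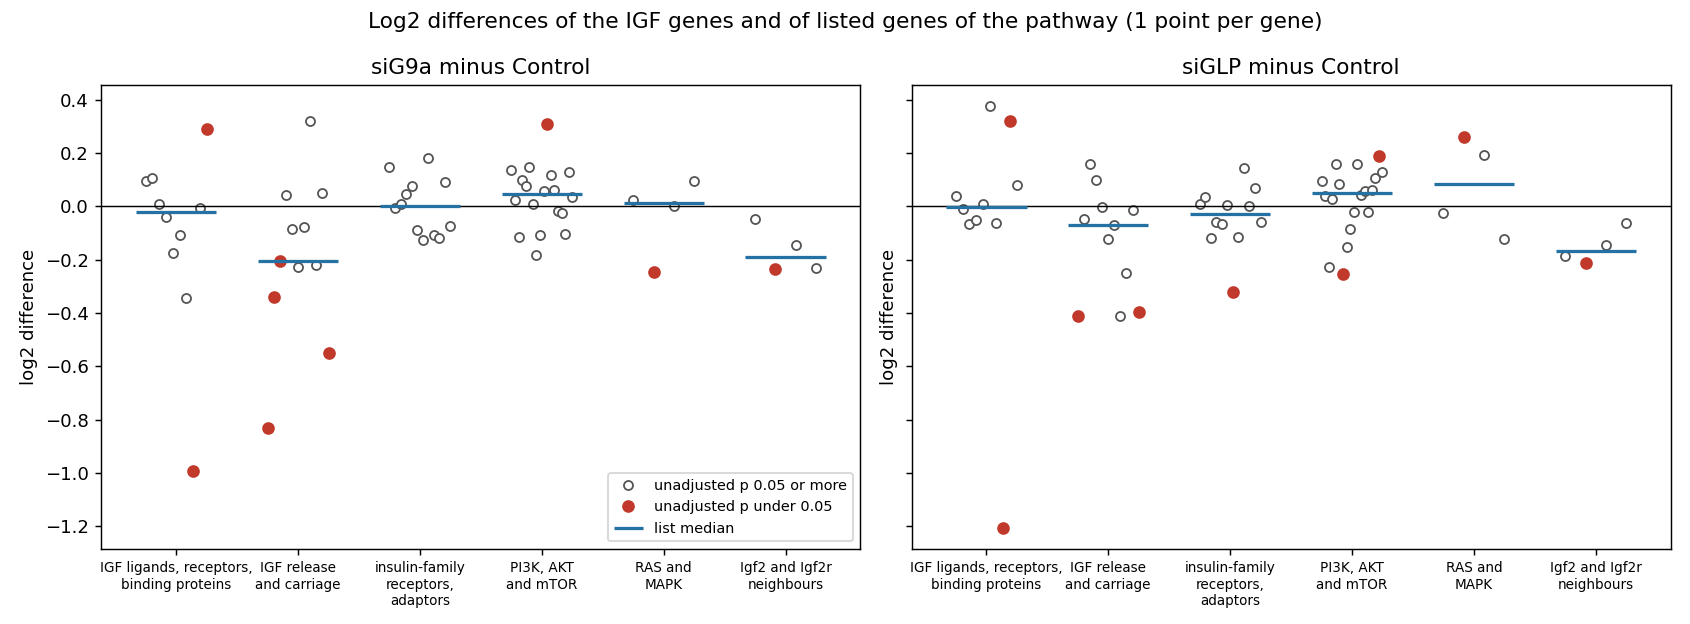
Log2 difference from Control (y axes), 1 point per gene, for the 10 IGF genes and 5 of the lists around them (x axes), with list medians as lines and genes at an unadjusted p under 0.05 filled. Igfbp5 is the lowest point in both panels, followed in siG9a by Adam12 at -0.83 and Stc2 at -0.55.

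Igfbp5 and Igfbp3 had the widest range of group means (1.21 and 0.48) among members above the median gene level. The genes nearest to Igfbp5, by the root mean square difference of log2 values centred on each gene's mean over the 7 arrays, were Ccnb1ip1 (0.27), Klf12 (0.29) and the miRNA gene Mir20a (0.29), where Igfbp5 itself varied by 0.59 around its mean. Ccnb1ip1 stood at -0.69 in siG9a and -0.56 in siGLP, Klf12 at -0.58 and -0.59, and Mir20a at -0.62 and -0.59. Those nearest to Igfbp3 were the miRNA gene Mir1941 (0.096), 2310050C09Rik (0.10) and Cela1 (0.10), where Igfbp3 varied by 0.30. These are the closest of all 22180 genes and were picked for their likeness, so they carry no test.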

How the data were processed

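RNA was measured on 7 single-colour Affymetrix whole-transcript arrays, with cDNA made from 100 ng of total RNA per the labels' protocols. The authors deposited 1 log2 value per probe set and array, made with RMA and Partek per the submitters' processing notes. The log2 scale was taken from the values (1.27 to 13.1). Of 22180 genes, 4746 (21.4%) held the same value on 3 or more arrays. Igf1 and Adam12 each held the same value on both siGLP arrays, an SD of 0 there. How such repeated values bear on the spread, the overlap counts and the p-values was not tested. RMA equalises distributions between arrays and compresses dim probe sets, so differences are relative to the bulk of transcripts. The genome build of the array annotation was not given in the sources used here.

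Of 33649 probe sets, 23521 had 1 symbol, and 23328 of these were updated through RefSeq gene numbers. The probe set with the highest mean was kept per gene, leaving 22180 genes, and all 10 members had 1 probe set each. No level filter was used. Limma 3.58.1 (R 4.3.3) fitted all 7 arrays with 1 mean per group, moderated variance and two-sided p-values, adjusted by Benjamini-Hochberg over all genes, with a threshold of 0.05. Confidence intervals (95%) are unadjusted. The code was tested on simulated data. The number of arrays limits the precision. The members and lists were chosen with earlier results of these data known. Named genes were all members, the targets, up to 4 genes with the smallest p per list and comparison with Control, and Igfbp1, H19 and Airn. Mmp2 and Pappa2 were named outside this rule. Marker genes named singly were chosen after their values were seen. The members' named neighbours in pattern were the 3 nearest of each of 2 members. Alternatives covered the arrays fitted, replicate block, level filter, normalization, variance model, probe set choice and each array left out.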

Additional observations from a re-analysis of the deposited data

Results flagged for a closer look

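Htra1, Map2k1, Rptor and Itga7 were the 4 of 106 measured listed genes whose knockdown arrays lay on opposite sides of Control, with every siG9a array below both Control arrays and every siGLP array above both. Over all 22180 genes, 550 (2.48%) had the knockdowns on opposite sides, in either order. The difference between the knockdowns, siGLP minus siG9a, was 0.36 for Htra1 (SE 0.073; unadjusted p = 0.00166, limma adjusted p = 0.115) and 0.51 for Map2k1 (SE 0.067; unadjusted p = 0.00014, limma adjusted p = 0.0531). It was 0.21 for the mTOR complex gene Rptor (SE 0.066; unadjusted p = 0.0166, limma adjusted p = 0.275) and 0.26 for the integrin gene Itga7 (SE 0.062; unadjusted p = 0.00393, limma adjusted p = 0.161). Rptor and Itga7 were named after their values were seen. None of the 4 differences passed over all genes. Ehmt2, the gene targeted in siG9a, differed between the knockdowns by 1.22 (siGLP minus siG9a; limma adjusted p = 0.0277) and passed over all genes. None of the 10 IGF genes had the knockdowns on opposite sides of Control or passed for siGLP minus siG9a.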

How the results depend on the processing

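No member passed over all genes under any of the 16 alternatives in any of the 3 comparisons, so the count of members past the threshold was 0 throughout. In the settings given below where 0 of all genes passed, no member could have passed, so those settings add nothing to this count. The smallest limma adjusted p of a member over the alternatives was 0.158 in siG9a minus Control, 0.203 in siGLP minus Control and 0.0776 in siGLP minus siG9a. Under every alternative tried in which the gene was fitted, 5 members kept their direction in siG9a minus Control (Igf1, Igf1r, Igfbp4, Igfbp5 and Igfbp7), 6 in siGLP minus Control (Igf1, Igf1r, Igfbp3, Igfbp5, Igfbp6 and Igfbp7) and 7 in siGLP minus siG9a (all but Igf2, Igf2r and Igfbp5). Igf1 and Igf2 have no value when genes under the median level are dropped. The values that turned were small in size, at most 0.21 with all arrays. In siG9a minus Control, Igf2 turned to -0.0042 with the replicate block, the same value as without siG9a 3. Igfbp6 turned to 0.00335 there under quantile normalization. In siGLP minus siG9a Igf2r turned to 0.0026 under quantile normalization and 0.0053 under cyclic loess. With single arrays left out, in siG9a minus Control the range was Igf2 from -0.13 to 0.15, Igf2r from -0.14 to 0.035, Igfbp2 from -0.35 to 0.0024, Igfbp3 from -0.38 to 0.16 and Igfbp6 from -0.025 to 0.011. With single arrays left out, in siGLP minus Control the range was Igf2 from -0.20 to 0.071, Igf2r from -0.16 to 0.061, Igfbp2 from -0.17 to 0.19 and Igfbp4 from -0.23 to 0.11. With single arrays left out, in siGLP minus siG9a the range was Igf2 from -0.19 to 0.026, Igf2r from -0.12 to 0.099 and Igfbp5 from -0.50 to 0.068. The cause of these turns was not tested.

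Same-numbered replicates deviated together only in part (correlation of deviations across genes 0.0047 to 0.17 over 6 pairs), so the number was not taken as a pairing. All 6 values were above 0. In a group of 2 arrays the deviations mirror each other, so the 6 values are not independent and cannot settle whether the number marks a pairing. With the replicate number as a block 0 members passed in each comparison. siG9a 3 is the only array numbered 3, so the block takes it up. The siG9a differences with the block therefore equal those without siG9a 3 and are no separate check. Igfbp5 stood at -0.70 in siG9a with the block (SE 0.13; unadjusted p = 0.00293, limma adjusted p = 0.347). In siGLP it stood at -1.21 (limma adjusted p = 0.226). Over all genes, the count past the threshold in siG9a was 6, and 148 with genes below the median left out, 100 with trended robust moderation, 30 with genes below the 30th percentile left out, 4 after either renormalization, and 0 with the block, with the 2 groups alone, without moderation or without any 1 array. In siGLP these counts were 1, 21, 23, 1, 1 and 0, and 1 without siG9a 1. In siGLP minus siG9a they were 52, 350, 304, 171, 64 (quantile) and 63 (cyclic loess), 3 without moderation, and 0 with the block, with the 2 groups alone or without any 1 array. With 2 or 3 arrays per group and Igf1 and Igf2 near the array median, falls or small changes in the ligand transcripts could not be resolved.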
